A study of Mus musculus with 7 samples.

Results

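The genes described here are 4 tissue inhibitors of metalloproteinases (Timp1, Timp2, Timp3 and Timp4) and 6 metalloproteinases: Mmp2, Mmp14, Mmp15, Adamts1, Adam9 and Adam10. They are 10 of the 30879 genes in the table, and all 10 were found in it. They were chosen by name, with their levels in thyroid tissue by cell type and in late and early passage thyroid follicular cell organoids (TFCOs) already known. Those levels are therefore given as a description, with no test of the members. Cells with at least 1000 unique molecular identifiers (UMIs, 1 per captured RNA molecule) were used, 2035 of 2590.

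Single cells were profiled by SORT-seq, a plate method that sorts single DAPI-negative (living) cells and counts RNA from its 3' end. All samples came from wild type C57BL/6 mice, and the study's methods state that the organoids derive from female animals. The tissue group was adult thyroid, dissociated with collagenase and TrypLE, with 2 samples. The organoid groups were early passage (2 samples) and late passage TFCOs (3 samples), grown from dissociated thyroid in basement membrane extract in a medium with R-spondin 3, the TGF-beta receptor inhibitor A83-01, forskolin, EGF and FGF10. No further treatment was given, and exact ages are not given in the sources used here. The series text speaks of 2 biological replicates per description while 3 late samples are labelled, and nothing ties a sample to a mouse or an organoid line. Differences between the samples may therefore be in part technical. Tissue cells differ from TFCOs also in collagenase digestion and culture, and these cannot be told apart here.

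The matrix around cells is cut and remodelled by zinc-dependent proteases. MMPs are either secreted (Mmp2) or held in the membrane (Mmp14 and Mmp15), ADAMTS proteases are secreted and cut proteoglycans, and ADAMs are membrane proteins that release the outer parts of receptors, ligands and cadherins. TIMPs are small secreted proteins that block the active site of these enzymes. Timp2 also takes part in the activation of pro-Mmp2 by Mmp14, and Timp3 stands out among TIMPs by binding to the matrix itself and by blocking several ADAMs and ADAMTSs. In the thyroid, each follicle sits on a basement membrane and is wrapped by a dense network of capillaries.

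In GENCODE M21 on GRCm38, Timp3 lies on the plus strand at chr10:86300372-86349506, within Syn3 on the other strand. Timp1 lies in the same way within Syn1, at chrX:20870166-20874735 (plus strand), and Timp4 within Syn2, at chr6:115241892-115252205 (minus strand). Timp2 lies on the minus strand at chr11:118301069-118355740, where Cep295nl is annotated on the same strand. Counting by strand alone would not separate this pair, and the part of Cep295nl in the Timp2 counts was not tested. Whether the counting used strand is not given in the sources used here, so reads of a Timp gene and of the synapsin gene around it may not have been separated. In the TFC-like cells of tissue 1 and 2, Syn3 had 7 and 16 UMIs, where Timp3 had 144 and 538. In TFCOs the counts of Syn3 and Timp3 were closer. Syn3 had 78, 150 and 55 UMIs in late samples 1 to 3 and 111 in each early sample. Timp3 had 148, 34 and 185 and then 35 and 243, so that Syn3 was above Timp3 in late sample 2 and early sample 1. Syn1 was above Timp1 in TFC-like cells of every sample, with 11 to 35 UMIs against 4 to 18 in TFCOs and 3 and 3 against 0 and 1 in tissue. Syn2 was above Timp4 in every TFCO sample (19 to 35 UMIs against 1 to 6). In tissue 1 and 2 Syn2 had 4 and 3 UMIs and Timp4 had 0 and 11.

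RefSeq promoter windows (250 bases before to 50 after the start, GRCm38.p6) were at hand for 8 of the 10 genes, all but Mmp2 and Adam9. The 5 genes below are shown because the results by cell class turn on them: Timp3 (endothelial, mural, stromal and follicular cells of the gland), Timp2 and Mmp14 (stromal cells), and Mmp15 and Adamts1 (endothelial cells). The windows are chr10:86300162-86300461 (plus strand, Timp3), chr11:118355362-118355661 (minus, Timp2), chr14:54431348-54431647 (plus, Mmp14), chr8:95352046-95352345 (plus, Mmp15) and chr16:85803064-85803363 (minus, Adamts1). Each is written 5' to 3' on the strand of its gene, and capitals mark the TATA box (TATAAA), the CCAAT box (CCAAT), the GC box (GGGCGG), the AP-1 motif (TGACTCA) and the TEAD motif (GGAATG) on either strand.
Timp3: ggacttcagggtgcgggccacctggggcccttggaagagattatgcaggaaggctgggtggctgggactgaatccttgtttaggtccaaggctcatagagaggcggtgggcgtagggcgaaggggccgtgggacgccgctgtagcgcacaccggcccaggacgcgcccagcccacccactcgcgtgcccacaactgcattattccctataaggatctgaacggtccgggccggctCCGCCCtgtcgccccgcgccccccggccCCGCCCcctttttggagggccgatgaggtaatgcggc
Timp2: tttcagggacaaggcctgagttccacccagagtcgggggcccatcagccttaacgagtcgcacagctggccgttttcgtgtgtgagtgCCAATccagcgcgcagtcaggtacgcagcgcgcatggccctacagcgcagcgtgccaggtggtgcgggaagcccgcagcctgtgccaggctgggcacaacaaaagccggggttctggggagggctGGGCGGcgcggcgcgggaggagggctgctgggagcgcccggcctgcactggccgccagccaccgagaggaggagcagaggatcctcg
Mmp14: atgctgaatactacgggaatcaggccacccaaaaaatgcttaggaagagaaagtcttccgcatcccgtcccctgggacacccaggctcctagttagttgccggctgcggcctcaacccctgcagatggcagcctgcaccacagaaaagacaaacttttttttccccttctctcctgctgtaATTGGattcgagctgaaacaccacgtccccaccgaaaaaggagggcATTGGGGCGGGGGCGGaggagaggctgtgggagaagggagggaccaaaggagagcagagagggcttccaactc
Mmp15: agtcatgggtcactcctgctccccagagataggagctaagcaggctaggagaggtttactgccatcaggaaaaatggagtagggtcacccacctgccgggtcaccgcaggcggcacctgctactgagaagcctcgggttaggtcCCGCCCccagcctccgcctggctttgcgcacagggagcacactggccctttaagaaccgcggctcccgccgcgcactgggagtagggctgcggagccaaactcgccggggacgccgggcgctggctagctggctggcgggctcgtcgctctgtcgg
Adamts1: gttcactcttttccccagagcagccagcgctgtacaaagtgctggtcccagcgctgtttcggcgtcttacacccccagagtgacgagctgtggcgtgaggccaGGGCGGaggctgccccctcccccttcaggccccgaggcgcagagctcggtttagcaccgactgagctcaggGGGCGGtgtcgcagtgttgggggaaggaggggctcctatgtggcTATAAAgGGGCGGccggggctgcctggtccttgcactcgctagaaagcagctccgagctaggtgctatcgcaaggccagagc
GGGCGG was present in 7 of the 8 windows, all but that of Timp4, and in 35.7% of all 32851 windows of this length. CCAAT was present in 4 of 8 (Timp1, Timp2, Mmp14 and Adam10) and in 37.4% of all windows. TATAAA stood only in the window of Adamts1 among the 8, and in 13.6% of all windows. TGACTCA was in none of the 8 (5.20% of all windows) and GGAATG only in that of Timp1 (14.7% of all). In the Mmp14 window a CCAAT and 2 GGGCGG copies run into one another. Timp3 and Timp2 windows were alike in GC content, at 67.0 and 68.7%, against a median of 52.7% over all windows.

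Cells were grouped by clustering without the 10 genes, and clusters were named from marker lists, so the classes are called TFC-like (thyroid follicular cells), endothelial-like and so on. They were rebuilt here and can differ from those of the study. The 578 tissue cells held 181 endothelial-like, 96 TFC-like, 57 immune-like, 55 mural-like (the cells that wrap small vessels) and 22 stromal-like cells, 3 parathyroid-like cells, 156 cells that stayed unnamed and 8 that were set aside. Of the 1457 TFCO cells, 1440 were TFC-like and 17 were set aside. The median depth of TFC-like cells was 2288 and 2215 UMIs in tissue and from 5241 to 12380.5 UMIs in the TFCO samples. The 14 follicular markers summed to 1619 and 1235 UMIs per 10000 in TFC-like tissue cells and to between 113 and 205 in TFCO samples. In tissue 2, 2 TFC-like cells had 268847 and 151110 UMIs, far above the third at 15122, and they held 438 of the 538 Timp3 UMIs of that class. A level below is the mean over cells of the UMIs per 10000 UMIs of the cell, so that these 2 cells count no more than others.

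Timp3 was abundant in 4 of the 5 named classes of the gland that held more than 3 cells. In endothelial-like cells its level was 23.4 in tissue 1 and 23.6 in tissue 2. Mural-like cells had 15.9 and 12.3, stromal-like cells 9.90 and 17.3, and TFC-like cells 10.2 and 10.3. Endothelial-like cells were above each of the other classes in both samples in this clustering, while mural-like, stromal-like and TFC-like cells overlapped in their order. In immune-like cells the level was 0.755 and 0.591, so that the other 4 classes stood far apart from them. Clustering with the 10 genes kept, or with every deposited cell, each put the mean of endothelial-like cells at 17.3, no longer above the stromal-like cells of tissue 2. In both settings a cluster led by Gm10800 and Gm10801 (96 and 92 cells) was also named endothelial-like. Its part in the lower mean was not tested. Of all Timp3 UMIs in the tissue cells, endothelial-like cells held 54.0 and 53.2%. The unnamed cells had levels of 7.93 and 6.26. A UMI of Timp3 was found in 74.5% (95% Clopper-Pearson interval 60.4 to 85.7) and 62.2% (46.5 to 76.2) of TFC-like tissue cells. In the deeper immune-like cells (medians of 6307 and 5850 UMIs) it was found in 39.4% (22.9 to 57.9) and 33.3% (15.6 to 55.3). Such intervals cover counting error only.

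**Figure D1:**
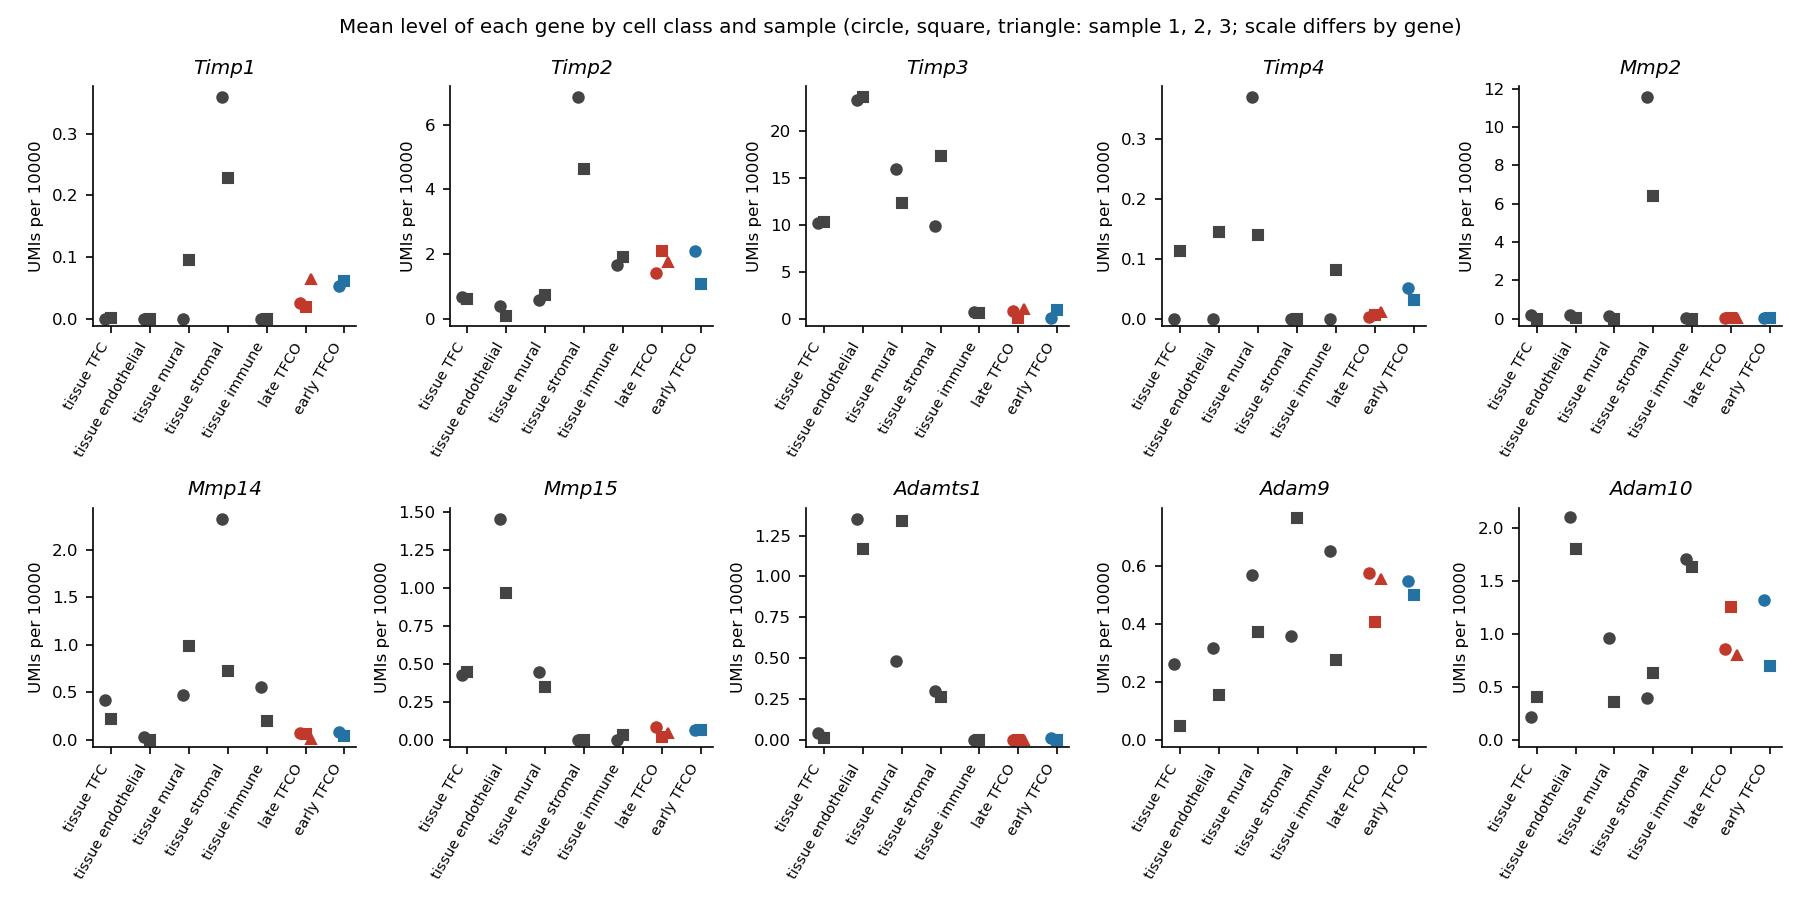
Mean level of each of the 10 genes (UMIs per 10000) in each cell class of the 2 tissue samples and in TFC-like cells of the 3 late and 2 early TFCO samples, 1 point per sample and class, on a linear axis of its own for each gene. Timp3 sits near 10 in both TFC-like tissue samples and at or below 1.04 in all TFCO samples, and Mmp2 is above 0.184 only in stromal-like cells among the classes shown.

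In TFCOs, Timp3 was low throughout. Its level was 0.821, 0.0945 and 1.04 in late samples 1 to 3 and 0.0989 and 0.872 in early samples 1 and 2. All 5 values lay below both TFC-like tissue values of 10.2 and 10.3. The mean was 0.585 ± 0.453 (SD, n = 5) against 10.2 ± 0.0940 (SD, n = 2). On the log2(level + 1) scale the difference, TFCO minus tissue, was -2.89 (limma SE 0.37), and on the linear scale tissue was 18.0-fold above the mean of the late and early groups. Late sample 2 and early sample 1 lay below the levels of immune-like tissue cells (0.755 and 0.591), and the other three TFCO samples lay somewhat above them. After each cell was thinned to 1000 UMIs, 55.1 and 46.2% of TFC-like tissue cells and between 0.926 and 7.27% of TFCO cells would carry a Timp3 UMI. Without thinning, the TFCO shares were 7.50 to 26.4%.

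Endothelial-like cells had the highest Timp3 level, so endothelial markers were read in the same TFC-like cells. The sum of 12 endothelial markers was 14.7 and 17.6 UMIs per 10000 in TFC-like tissue cells, which is 7.49 and 9.37% of the sum in endothelial-like cells of the same sample. In the TFCO samples it was 6.89 to 10.3. The Timp3 level of TFC-like tissue cells was 43.6% of that of endothelial-like cells in both samples. Of the 12 markers, 10 had a UMI in the TFC-like cells of tissue 1 and 11 in those of tissue 2. The TFC-like cells were split at the middle of their endothelial marker levels. In the 25 and 22 cells with the lower levels, Timp3 was 12.4 in tissue 1 and 9.18 in tissue 2, against 8.06 and 11.4 in the remaining cells. With only those 25 and 22 cells as tissue, the log2 difference of Timp3 was -2.95, while those of Mmp14, Mmp15 and Timp4 moved toward or past 0 (values with each gene). The 10 mural markers summed to 4.36 and 6.23 in tissue and to 0.744 to 2.14 in TFCOs, and the 14 immune markers to 20.7 and 9.89 against 0.203 to 0.796. No TFC-like tissue cell was free of UMIs of all endothelial, mural, stromal and immune markers, and the part of these markers in the Timp3 difference was not tested beyond these values. The 10 dissociation stress genes summed to 2.08 and 4.70 in tissue and 3.67 to 8.38 in TFCOs.

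**Figure D2:**
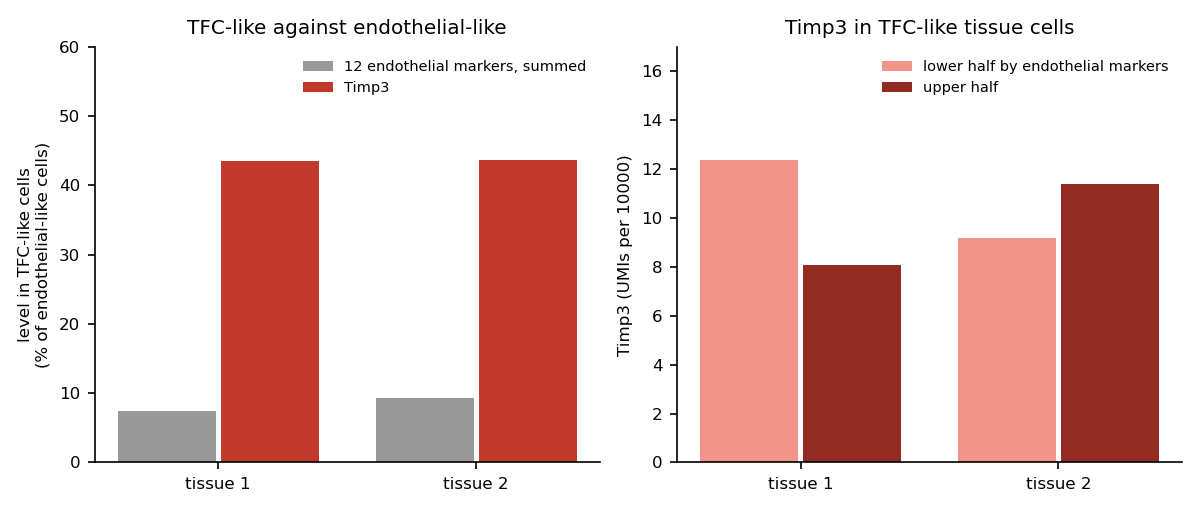
Left, the summed level of 12 endothelial markers and the level of Timp3 in TFC-like cells, each as a percent of its level in endothelial-like cells of the same tissue sample: the markers reach 7.49 and 9.37%, Timp3 43.6% in both. Right, Timp3 (UMIs per 10000) in TFC-like cells with lower and with higher endothelial marker levels. Timp3 is higher in the cells with lower marker levels in tissue 1 (12.4 against 8.06) and lower in tissue 2 (9.18 against 11.4).

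Timp2 ran the other way. Its level was 0.660 and 0.606 in TFC-like tissue cells, and 1.41, 2.10 and 1.75 in late and 2.09 and 1.06 in early samples. Each TFCO sample was above both tissue samples. The difference was 0.69 on the log2(level + 1) scale (limma SE 0.25), or 2.63-fold. In the gland itself, Timp2 was highest in stromal-like cells, at 6.86 and 4.63, followed by immune-like cells at 1.67 and 1.91, which overlapped with TFCOs. Mural-like cells, at 0.563 and 0.741, overlapped with TFC-like tissue cells, and endothelial-like cells were lowest at 0.380 and 0.0830. UMIs of this 3' protocol do not scale with transcript length, and the ratio of Timp2 to Timp3 was 0.0649 and 0.0587 in TFC-like tissue cells. In TFCOs it was 1.72, 22.2 and 1.68 (late) and 21.1 and 1.21 (early). The order of these inhibitors was thus turned in each TFCO sample.

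Timp1 and Timp4 were close to the limit of detection. Timp1 had no UMI in tissue 1 and 1 UMI in tissue 2 among TFC-like cells, which came from one of the 2 very deep cells. In TFCOs it had 4, 8 and 16 UMIs (late) and 17 and 18 UMIs (early), at levels of 0.0182 to 0.0636. A Timp1 UMI was found in 1.31 to 4.56% of TFCO cells. The count of 0 in tissue 1 allows a share of up to 5.88% (taken as 3 of its 51 cells), so it cannot show a difference. No Timp1 UMI was found in 181 endothelial-like or 57 immune-like cells, and stromal-like cells had 3. Timp4, the inhibitor known from heart and fat, had 17 UMIs in all 1440 TFCO cells. In tissue its highest levels were in mural-like cells, at 0.370 and 0.139, from 3 and 2 UMIs. The TFC-like cells of tissue 2 held 11 Timp4 UMIs, 10 of them in the 2 deep cells. The log2 difference of Timp4, TFCO minus tissue, was -0.043, and 0.034 with the tissue cells of lower endothelial marker level.

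Mmp2 (gelatinase A, which degrades type IV collagen and gelatin) was a stromal gene of the gland. Its level in stromal-like cells was 11.6 in tissue 1 and 6.38 in tissue 2. In the other named classes of tissue it was between 0 and 0.184. The 15 stromal-like cells of tissue 1 held 88 of the 107 Mmp2 UMIs of that sample (82.2%), and the 7 of tissue 2 held 16 of 19 (84.2%). In TFCOs, Mmp2 had 24 UMIs in 23 of 1440 cells, at levels of 0.00954 to 0.0398. These overlapped with TFC-like tissue cells, at 0.184 and 0.00165, which rest on 2 UMIs each.

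Mmp14 (MT1-MMP, the membrane protease that activates pro-Mmp2) was also highest on average in stromal-like cells, at 2.33 and 0.721, and was found in mural-like (0.478 and 0.987) and immune-like cells (0.553 and 0.195). These 3 classes overlapped. Endothelial-like cells had 2 UMIs in tissue 1 and none in tissue 2, and a count of 0 allows a share of cells with a UMI of up to 3.26% (taken as 3 of its 92 cells). Timp2, Mmp2 and Mmp14, which work together at the cell surface, were all found in 10 of 15 stromal-like cells of tissue 1 and in 1 of 7 of tissue 2. No mural-like cell carried all of them (0 of 28 and 0 of 27). In TFC-like tissue cells the Mmp14 level was 0.419 and 0.217, from 5 and 24 UMIs, of which 22 were in the 2 deep cells. TFCOs had 0.0788, 0.0636 and 0.0148 (late) and 0.0804 and 0.0378 (early), all below both tissue samples. The log2 difference was -0.32, and -0.21 and -0.43 without tissue 1 and without tissue 2. With only the 25 and 22 tissue cells of lower endothelial marker level it was -0.098. Endothelial-like cells themselves had Mmp14 levels of only 0.0300 and 0, and the cause of this shift was not tested.

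Mmp15 (MT2-MMP, a second membrane-type enzyme) had another distribution. It was highest in endothelial-like cells, at 1.46 and 0.967, which held 64.3 and 53.3% of its tissue UMIs. TFC-like tissue cells had 0.425 and 0.447 and mural-like cells 0.448 and 0.347, and these overlapped. No UMI was found in 22 stromal-like cells, and 1 in 57 immune-like cells. The TFCO levels were 0.0889, 0.0223 and 0.0483 (late) and 0.0655 and 0.0653 (early), all below TFC-like tissue cells. The log2 difference was -0.44, and it was -0.032 with only the 25 and 22 tissue cells of lower endothelial marker level, so that it all but vanished there. The tissue values rest on 4 and 19 UMIs, 14 of the latter in the deep cells. Thinned to 1000 UMIs, 3.15 and 4.02% of TFC-like tissue cells and 0.223 to 0.880% of TFCO cells would carry an Mmp15 UMI.

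Adamts1, a secreted protease that cuts the proteoglycans aggrecan and versican, was found, like Mmp15, in cells of the vessels. Endothelial-like cells had levels of 1.35 and 1.17 and mural-like cells 0.482 and 1.34, and these classes overlapped. With the 10 genes kept in the clustering, their means were 0.930 and 0.966. Stromal-like cells followed at 0.302 and 0.260. Adamts1 and Mmp15 were found together in 14 of 89 and 10 of 92 endothelial-like cells. TFCOs had 2 Adamts1 UMIs in all, both in early sample 1. The other 4 samples had none, which by the same limit of 3 cells allows shares with a UMI of up to 0.980, 0.833 and 1.24% in late samples 1 to 3 and 1.00% in early sample 2. TFC-like tissue cells were at 0.0448 and 0.0108.

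The ADAMs were found in every class. Adam10, the main sheddase of Notch receptors and cadherins, was at 2.10 and 1.80 in endothelial-like cells and at 1.70 and 1.63 in immune-like cells. The order of these classes depended on the clustering: with the 10 genes kept the endothelial-like mean was 1.40 and with every deposited cell 1.41, against 1.67 and 1.70 in immune-like cells. TFC-like tissue cells had 0.221 and 0.406, the lowest class mean of the gland, though mural-like and stromal-like cells overlapped with them. In TFCOs the level was 0.855, 1.25 and 0.803 (late) and 1.32 and 0.697 (early), above both tissue values in each sample. The difference was 0.59 on the log2(level + 1) scale (limma SE 0.21), or 3.15-fold. Timp3, Adam10 and Mmp15 were found together in 17 of 89 and 13 of 92 endothelial-like cells. Adam9, a sheddase with broad expression, was at 0.261 and 0.0486 in TFC-like tissue cells and at 0.573, 0.404 and 0.553 (late) and 0.547 and 0.500 (early) in TFCOs. All tissue classes overlapped with the next in order for Adam9, and TFCOs (0.515 ± 0.0676, SD, n = 5) ranked just under stromal-like cells. The tissue values of Adam9 rest on 4 and 11 UMIs.

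By group, 4 of the 10 genes were higher in every TFCO sample than in either tissue sample (Timp1, Timp2, Adam9 and Adam10), 3 were lower (Timp3, Mmp14 and Mmp15) and 3 overlapped (Timp4, Mmp2 and Adamts1). A filter on low values (a mean of at least 0.5 over the 3 groups) left 4338 genes to be tested. Of these, 51.0% did not overlap, 40.3% being higher and 10.7% lower. Only 3 members passed the filter, Timp2 and Adam10 (both higher) and Timp3 (lower). The other 7 did not, so these shares do not cover them. In the limma fit, 27.1% of the genes tested were called at an adjusted p under 0.05. The rule used this contrast, so no call is given for the members and nothing is read from their counts. Of the 1175 genes called, 907 were higher and 268 lower in TFCOs, and after centring each sample on its median gene 366 were higher and 414 lower of 780. The median gene was 0.22 higher in TFCOs, and the log2 differences of Timp2, Timp3 and Adam10 are to be read against that shift. The signs for these 3 genes were kept after centring.

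Late and early passage TFCOs were compared for the same genes. On the log2(level + 1) scale, late minus early was 0.15 for Timp3 (limma SE 0.26), 0.12 for Timp2 (SE 0.18) and -0.02 for Adam10 (SE 0.15), each smaller than its error. The late and early values overlapped for 8 of 10 genes. For Timp4 and Mmp2 all late samples were below both early samples, at levels under 0.06. Neither gene passed the filter. Among the genes that did, 42.0% did not overlap and 24.3% lay lower in late samples. Nothing is read from these counts of members. With limma, 1 of 4338 genes (0.0231%) was called between passages, and 876 had an unadjusted p under 0.05. Without early sample 1, which leaves a lone early sample, 283 were called.

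The TFCO samples differed among themselves in a way that did not follow passage. Late sample 2 and early sample 1 had the lowest Timp3 (0.0945 and 0.0989, from 34 and 35 UMIs) and the highest Timp2 and Adam10. They were also the deepest, with medians of 12380.5 and 11169.5 UMIs per TFC-like cell against 5724.5, 8978 and 5241 in the other three. Their cells fell in other clusters. In late sample 2, 200 of 360 cells, and in early sample 1, 113 of 234, were in a cluster led by Dcpp3, Dcpp2 and Sftpb, where Timp3 was 0.0707 and 0.108. In the other samples, a cluster led by Elobl, Plekhs1 and Clu had Timp3 at 0.847 (29 cells, late 1), 1.03 (115 cells, late 3) and 1.85 (62 cells, early 2). A cluster led by Slx4ip, Tg and Aqp1 had 0.651, 1.86 and 0.425 in the same samples. The ranges of these clusters met. A cluster led by 2310057J18Rik, Scd1 and Ecrg4 had 1.02 in late sample 1 (163 cells) and only 0.228 in late sample 3 (32 cells), while one led by Dcpp3, F630040K05Rik and BC006965 reached 0.324 in late sample 2 (36 cells). Timp2 varied less, between 0.846 and 2.58 over all clusters of at least 20 cells of a sample. The 14 follicular markers summed to 121 and 113 in the 2 deep samples and 169 to 205 in the others. The part of depth or of the samples' make-up in the Timp3 values was not tested.

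Within a TFCO sample, Timp3 was held by few cells. In late sample 1, a UMI was found in 15.4% of cells, while 35.6% would carry one if its 148 UMIs were spread by the depth of the cells alone. For late sample 3 the values were 24.9 and 49.2%, and for early sample 2 they were 26.4 and 47.0%. The tenth of the cells with the most Timp3 UMIs held 88.5, 75.1 and 79.4% of them in these samples, and single cells reached 15, 15 and 27 UMIs. In late sample 2 and early sample 1, where Timp3 was lowest, the shares were 7.50 against 8.90% and 8.12 against 13.4%. Timp2 was spread more evenly, with 79.2 against 86.4% in late sample 2 as its highest share and 40.5 against 53.4% in early sample 2 as its lowest. For Adam10 the tenth of cells with the most UMIs held from 37.7 to 63.7%, and for Adam9 from 51.3 to 72.4%. The mean Timp3 level in TFCO cells with a UMI was 5.34, 4.18 and 3.30 in late samples 1 and 3 and early sample 2, below the mean over all TFC-like tissue cells.

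**Figure D3:**
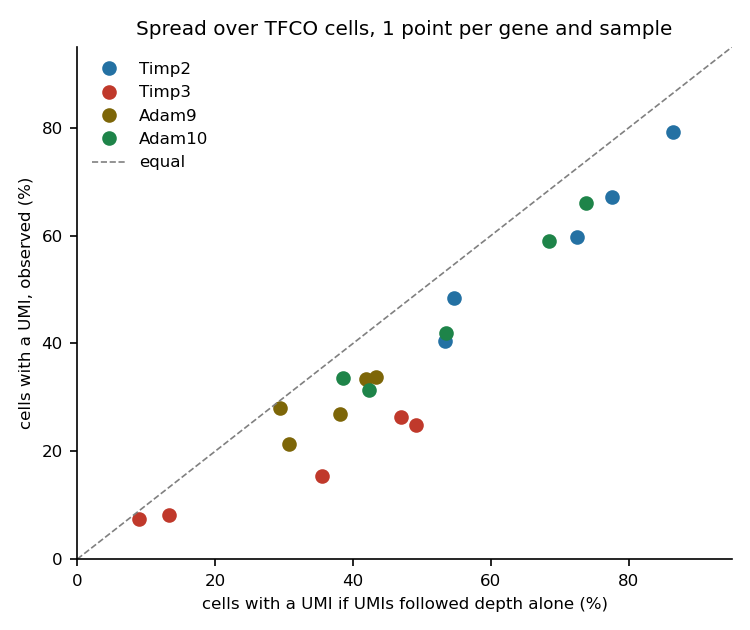
Share of TFC-like TFCO cells with at least 1 UMI (vertical axis, %) against the share that would have one if the UMIs of the gene followed the depth of the cells alone (horizontal axis, %), 1 point per gene and TFCO sample. Points for Timp3 in late samples 1 and 3 and early sample 2 lie farthest under the dashed line of equality, for example 15.4 against 35.6%.

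Proliferating and other TFCO cells were compared next, which the choice of the genes did not use. There were 14, 63 and 21 proliferating cells in late samples 1 to 3 and 46 and 12 in early samples 1 and 2, and 4 of the 10 genes had levels high enough to be tested. None of the 4 passed, where 2.42% of 14280 genes were called with limma (1.9% higher and 0.518% lower). Timp3 was lower in proliferating cells in 5 of 5 samples. Its level was 0, 0.0743, 0.301, 0.0832 and 0.279 in proliferating cells of late samples 1 to 3 and early samples 1 and 2. These values rest on only 0, 6, 7, 9 and 5 UMIs. In other cells the level was 0.860, 0.0988, 1.11, 0.103 and 0.896. The log2 difference was only -0.033 in late sample 2 and -0.026 in early sample 1. Over the 5 samples the difference was -0.44 (SE 0.12, limma with Benjamini-Hochberg adjustment over all genes, adjusted p = 0.0889). Of the 12 alternatives, 2 passed, with cells of at least 2000 UMIs and with UMIs summed over cells, and their adjusted p ranged from 0.0382 to 0.515. The largest came with cells scored as proliferating one by one rather than by cluster, where the difference was -0.19.

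In all 5 samples Adam10 was above its level in other cells, by 0.31 (SE 0.10, limma adjusted p = 0.178). Its levels were 1.50, 1.42, 1.17, 1.70 and 1.16 in proliferating cells against 0.823, 1.22, 0.768, 1.23 and 0.677 in other cells, in the same order of samples. Timp2 was lower in 5 of 5 samples, by -0.24 (SE 0.11, adjusted p = 0.318 with limma). Adam9 was higher in 3 and lower in 2 samples (-0.07, SE 0.10, limma adjusted p = 0.795). Proliferating cells were deeper than other cells in each sample, for example 18826 against 9010 UMIs in early sample 1, and the part of depth was not tested. No gene of 14280 was called for a difference of this contrast between late and early passage, with 703 at an unadjusted p under 0.05 in limma.

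**Figure D4:**
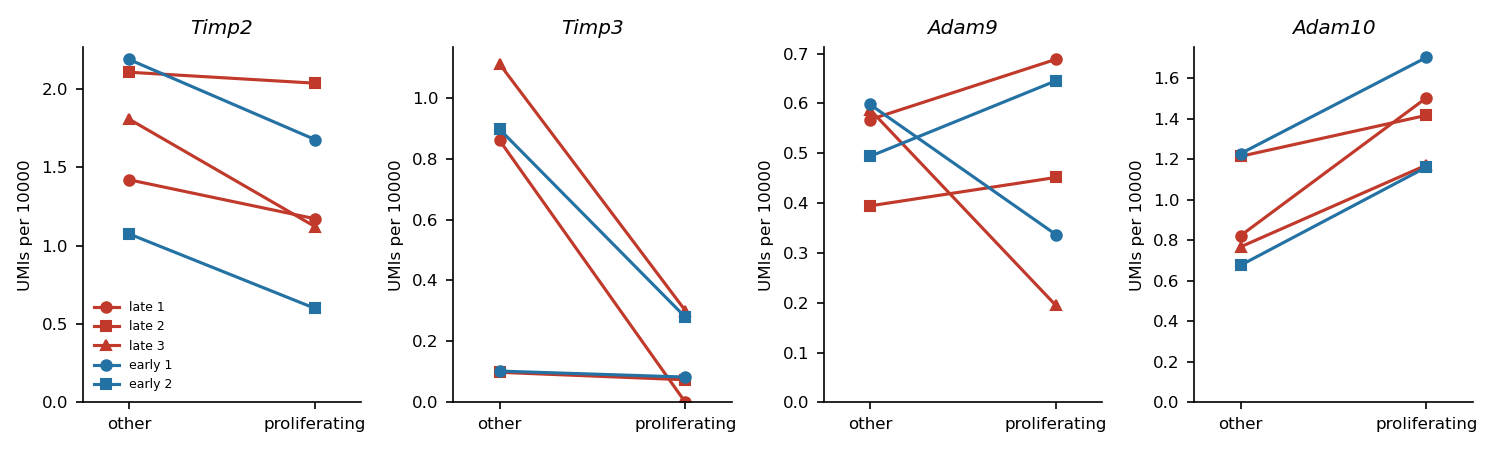
Mean level (UMIs per 10000, axes from 0) of Timp2, Timp3, Adam9 and Adam10 in other and in proliferating TFC-like cells, with 1 line per TFCO sample (red late, blue early). All 5 lines slope down for Timp3 and Timp2 and up for Adam10, and none of these differences passed the test over all genes.

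The wider protease network was read from 6 lists of 80 genes, 79 of them in the table. These lists were chosen with earlier results of these data known. The adjusted p of their genes are therefore descriptions and not independent tests. In the comparison of TFCOs with tissue, 16 were high enough to be tested, and 2 were higher and 2 lower in TFCOs, beside 20.9 and 6.18% of all genes tested. None of the 20 other MMPs and none of 3 other inhibitors (Reck, A2m and Tfpi2) reached the filter, and of the 10 other ADAMs and 18 other ADAMTSs only Adam12 and Adamts9 did. They stood at 0.01 (SE 0.14) and 0.03 (SE 0.15), and neither passed. Of 8 tested activators and partners, 2 were lower. Cd63, a tetraspanin that binds Timp1, had levels of 9.55 and 7.46 in tissue and 1.81 to 3.32 in TFCOs, with a difference of -1.55 (SE 0.27, limma adjusted p = 0.00347). Lrp1, the scavenger receptor that takes up TIMPs and proteases, was lower by -0.45 (SE 0.14, limma adjusted p = 0.0348).

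Of 6 tested substrates that are shed at the membrane, 2 were higher. Areg, an EGF receptor ligand released by Adam17, was at 0 and 0.169 in tissue and at 1.85, 1.03 and 1.04 (late) and 1.11 and 0.795 (early) in TFCOs, a difference of 0.96 (SE 0.22, limma adjusted p = 0.0103). Sdc4, a heparan sulfate proteoglycan of the cell surface, rose from 0.957 and 1.30 to between 2.98 and 4.52 (1.07, SE 0.25, limma adjusted p = 0.0115). The Adam10 substrates App, Cdh1 and Notch2 stood at 1.25 (SE 0.46), 0.64 (SE 0.26) and 0.45 (SE 0.16), with limma adjusted p of 0.0605, 0.0830 and 0.0505. The remaining substrate tested, the hyaluronan receptor Cd44, stood at -0.02 (SE 0.31, limma adjusted p = 0.965), and none of these 4 passed. Lrp1, Sdc4, Notch2 and App followed the barcode of the plate well more than the members did. Their correlations between cells of different plates were 0.117, 0.0528, 0.0600 and 0.0512, against -0.0397 to 0.0200 for 8 members. With UMIs summed over cells 1 gene of these lists was called, which was higher in TFCOs, so that Cd63 and Lrp1 were no longer called. With equal weights 8 were called.

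The other members of these families were also read by cell class. Of the 20 other MMPs and 10 other ADAMs, mural-like cells had 2 and 4 at a level of at least 0.5, against 0 and 1 in TFCOs. TFC-like tissue cells had 1 and 1, endothelial-like cells 0 and 3, stromal-like cells 1 and 3, and immune-like cells 1 and 4. The 18 other ADAMTSs had 6 at that level in stromal-like cells, 3 in immune-like cells, 2 in each other tissue class and 1 in TFCOs. Among the genes behind these counts, Adamts6, Adamts5, Adamts18 and Mmp16 followed the well barcode in TFCO cells. Their correlations were 0.238, 0.169, 0.0822 and 0.0545, and the part of this in the counts was not tested. The following, too, were picked after their values were seen. Adamts12 was at 6.48 in mural-like and 4.27 in stromal-like cells, and at 0.394 in TFC-like cells of the gland and 0.205 in TFCOs. Adam15 was at 1.90 in endothelial-like cells and between 0.390 and 0.477 in the other classes and in TFCOs. Reck, a membrane-anchored inhibitor of MMPs, was at 0.788 in stromal-like cells and 0.241 in TFCOs.

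Among the 4338 tested genes, those whose pattern over the 15 sample and class means was most like that of a member were listed for the 3 members above the filter. The means share libraries, so the correlations of log2(level + 1) are descriptions only. For Timp3 they were Col4a1 (Pearson r = 0.92) and Col4a2 (0.91), the type IV collagen chains of basement membranes, and Igfbp7 (0.90). For Timp2 they were Abca9 (0.84), Scara5 (0.83) and Myo9a (0.82). For Adam10, Elmo1 (0.89) and Pak2 (0.87) are given.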

How the data were processed

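The authors deposited 1 table of natural log values, ln(1 + x), with x the UMIs of a gene scaled to 10000 per cell. The submitters' processing notes name Trim Galore 0.4.3, STAR 2.5.3a, Seurat and the mouse build GRCm38, with no roles stated. The log was undone, and division by each cell's smallest value gave whole UMIs for 100% of non-zero values (tolerance 0.01). All samples shared the 384 well barcodes, and 4174 of 19498 genes with UMIs in at least 20 TFCO cells followed the barcode (correlation above 0.05) and were left out of the clustering, as were the members and the lists. Libraries held 1406925 to 4703472 UMIs. No column lacked a sample.

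Tissue and TFCO cells of at least 1000 UMIs were clustered separately (scanpy 1.11.5, 2000 variable genes, 30 components, 15 neighbours, Leiden at resolution 1). A cluster was named after the marker list with the highest mean if that was 1.5 times the second, if 3 or more markers were each seen in 10% of its cells, and if no other list had more markers among its 10 leading genes. A leading marker counted if its share of cells was 1.5 times that outside. It was proliferating if the median share over 10 markers was at least 40%. These naming rules were set after a first scoring had been seen to fail. No doublet caller was run, since wells are sorted singly.

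Mean levels per sample were log2-transformed with a pseudocount of 1 and fitted with limma 3.58.1 (R 4.3.3) over tissue, late and early groups, with group weights (0.460 for tissue, 1.36 for TFCO samples). Genes at 0.5 or more over the group means were tested. TFCO is the mean of late and early. Proliferating and other cells were compared with the sample as a term, for genes at 0.1 or more in 2 means. Adjustment was by Benjamini-Hochberg with a threshold of 0.05, and the fits were tested on simulated data. Members and lists were chosen with earlier results of these data known. Named genes are the 10 members, up to 3 called genes per list with the largest difference, and the 3 genes most like each member above the filter, of which 1 is not reported here. App, Cdh1, Notch2, Cd44, Adam12, Adamts9, Adamts12, Adam15, Reck, Adamts5, Adamts6, Adamts18 and Mmp16 lie outside this rule and were named after their values were seen. Alternatives changed the pseudocount, the filter, the scaling, the minimum of 2000 UMIs, the clustering, the weights, the cells and the samples.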

Additional observations from a re-analysis of the deposited data

Results flagged for a closer look

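Adamts1 stood out among the TFCO samples because 1 sample differed from the rest: early sample 1 had 2 UMIs (level 0.0112) and the other 4 had none, so that its gap to the nearest sample over the whole range was 1, above the critical value of 0.71 for 5 samples. With 4 samples at 0 this ratio is 1 whatever the count of the fifth, so it shows only that UMIs were found in a single sample.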

How the results depend on the processing

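The log2 difference of Timp3 between TFCOs and tissue stayed between -4.35 (pseudocount 0.1) and -2.70 (without early replicate 1) over 16 alternatives, and that of Timp2 between 0.50 and 1.22. For Timp1 it turned to -0.12 after centring on the median gene, which lowers the difference of every gene by the same amount. For Adam9 in proliferating cells it turned to 0.012 with UMIs summed over cells, and ranged from -0.13 (without early replicate 2) to 0.012 (without late replicate 3) with 1 sample left out. The 1175 genes called between TFCOs and tissue became 783 without a filter, 153 with UMIs summed over cells, 780 after centring, 660 with cells of at least 2000 UMIs, 1914 with equal weights and 886 to 1859 with 1 sample left out. A pair of settings was chosen after seeing the data. The 25 and 22 tissue cells with the lowest endothelial marker levels gave 459, and summed UMIs without the 2 deepest cells of tissue 2 gave 1036. The 4 list genes called became 1 with no filter and 1 with summed UMIs, 8 with equal weights and 3 to 7 with 1 sample left out. The late against early count of 1 ranged from 1 to 283. The 346 genes called in proliferating cells became 81 without a filter, 685 with summed UMIs, 536 with cells of at least 2000 UMIs and 162 to 441 with 1 sample left out. The cause of these changes was not tested. Where 1 tissue or 1 early sample was left, its spread is taken from the other samples. Clustering with the members and the lists kept moved the means of endothelial-like cells to 17.3 for Timp3, 1.40 for Adam10 and 0.930 for Adamts1 (from 23.5, 1.95 and 1.26). Every deposited cell gave 17.3, 1.41 and 0.914. In both settings a cluster led by Gm10800 and Gm10801 (96 and 92 cells) was also named endothelial-like.

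Tissue and late samples share the numbers 1 and 2 in their titles, and their deviations from the group means did not go together (correlation -0.04). With these numbers as a replicate block, 1038 genes and 4 list genes were called. A fit on TFC-like tissue cells with no UMI of endothelial, mural, stromal or immune markers was not run, since no cell was left. The small number of stromal-like cells (15 and 7) and the 4 to 35 UMIs behind the TFC-like tissue levels of Timp2, Mmp14, Mmp15, Adam9 and Adam10 limit their precision.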
